A study of Mus musculus with 6 samples.

Results

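Desmosomes are the junctions that bind epidermal keratinocytes to each other, and this account covers 10 of their genes, all measured on arrays of mouse skin with and without Sox4. The genes were listed by name: the desmogleins Dsg1a, Dsg2, Dsg3 and Dsg4, the desmocollins Dsc1, Dsc2 and Dsc3, the plakophilins Pkp1 and Pkp3, and desmoplakin, Dsp. All 10 had at least 1 probe, and 9 of them were among the 22823 genes and unnamed transcripts that could be tested; Dsg4 was too dim and is described separately. The samples were untreated skin from the resting stage of the hair cycle (telogen), taken from male mice of mixed C57Bl6/129Sv background. The 3 wild-type mice (WT replicates 1, 2 and 3) were 20, 19 and 18 weeks old, and the 3 mice with a Sox4 conditional knockout in skin (KO replicates 1, 2 and 3) were 17, 18 and 16 weeks old. Each mouse had 1 array with a single dye. The labels name neither the promoter behind the deletion nor the skin cells it acts in.

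In a desmosome, the desmogleins and desmocollins are cadherins that span the membrane and grip those of the neighbouring cell. Plakophilins and plakoglobin bind the cadherin tails inside the cell, and desmoplakin ties this plaque to keratin filaments. In epidermis the cadherins change with layer: Dsg3 and Dsc3 belong mainly to the lower layers and Dsg1 and Dsc1 to the upper ones, while Dsg4 is a desmoglein of the hair shaft. Antibodies or mutations that hit some of these proteins blister or thin the skin.

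The cadherin genes lie side by side: 7 of the 10 members are in 1 cluster, in the order Dsc3, Dsc2, Dsc1, Dsg1c, Dsg1a, Dsg1b, Dsg4, Dsg3 and Dsg2, with no other protein-coding gene among these 9. The other 3 members, Pkp1, Pkp3 and Dsp, lie on 3 other chromosomes. A promoter sequence was at hand for 1 member, Dsp, and is shown because Dsp is the plaque protein every desmosome uses and its fold change was the smallest of the 9. The window spans the start of the gene at chr13:38151044-38151343 (plus strand, RefSeq, build GRCm38.p6), with GC boxes (GGGCGG on either strand) in capitals:

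Dsp promoter: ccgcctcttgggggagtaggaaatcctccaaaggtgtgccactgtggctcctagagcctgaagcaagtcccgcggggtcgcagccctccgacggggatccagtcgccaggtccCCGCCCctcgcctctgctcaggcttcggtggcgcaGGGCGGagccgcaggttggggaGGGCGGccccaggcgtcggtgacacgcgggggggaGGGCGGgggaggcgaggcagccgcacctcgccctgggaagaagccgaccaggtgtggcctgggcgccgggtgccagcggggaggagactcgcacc

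The window holds 4 GC boxes, which do not overlap each other, and its GC content of 73% is higher than that of 94.3% of 32851 promoters of the same length, whose median is 52.7%. At least 1 GC box is present in 35.7% of those promoters. The core bound by Sox factors was searched as ACAAAG or ACAATG on both strands and is not in this window, while 28.6% of all promoters hold it. The AP-1 letters TGANTCA are not in it either, against 7.81% of all promoters.

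Values below are log2 processed signal relative to each array's 75th percentile, where 0 is the percentile itself, and differences are KO minus WT. Between 52.1% and 66.4% of probes were well above background, and no spot was saturated. Sox4, the targeted gene, stood at 0.41, 0.65 and 0.75 in WT skin but at −2.94, −2.88 and −3.05 in KO skin, so its log2 fold change was −3.56 with an SE of 0.13 over 3 arrays in each group (adjusted p = 0.00135, limma). The sources do not place the probe relative to the deletion. Epidermis was represented in every skin: all 23 listed basal and suprabasal markers, such as Krt5 and Krt10, were well above background on all 6 arrays.

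No desmosome gene changed past the adjusted threshold of 0.05. All 9 tested members nevertheless had a negative fold change, with a median of −0.23 and a range of −0.54 to −0.10 on the log2 scale. Of all genes tested, 64.1% were negative, with a median of −0.08. With limma, 0 of 9 members passed after adjustment, against 5 of 22823 genes (0.0219%), and 1 member, Dsg2, had an unadjusted p under 0.05 and a lower value in KO, against 5.50% of all genes. The groups did not overlap, with KO lower, for 2 members, Dsg2 and Pkp1, against 11.8% of all genes. Leaving out 1 array moved the count of 5 in either direction. It became 303 when WT replicate 1 was dropped and 88 when KO replicate 3 was dropped. Dropping KO replicate 1 gave 3, and dropping any of WT replicate 2, WT replicate 3 and KO replicate 2 gave 2. In none of these 6 fits did a desmosome gene pass, the smallest adjusted p being 0.105 for Pkp1 without WT replicate 1.

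**Figure D1:**
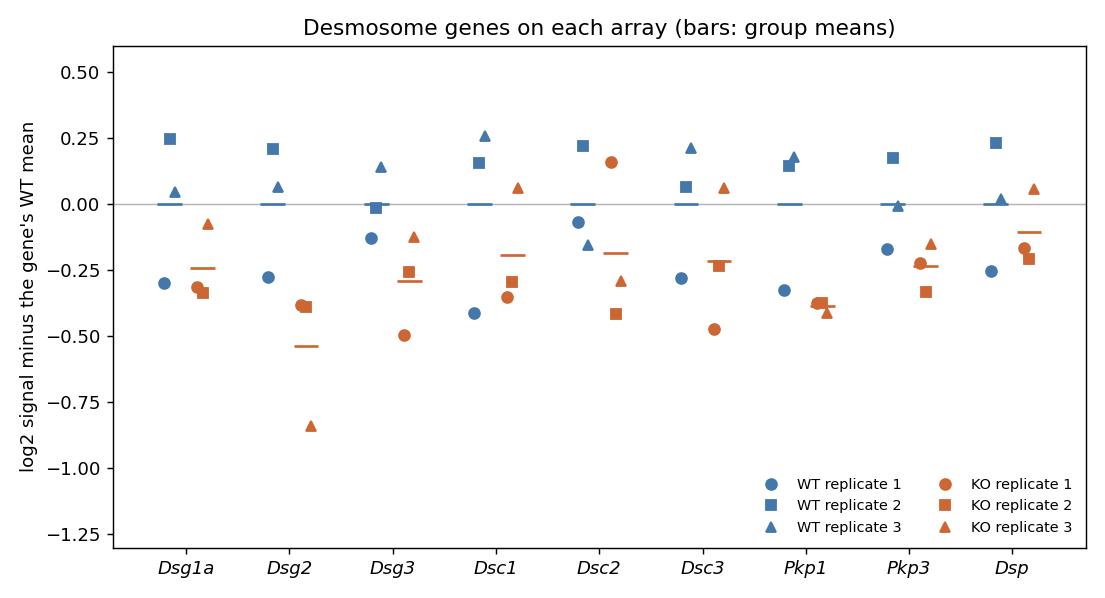
Log2 signal of the 9 tested desmosome genes on each array, as the difference from the gene's WT mean (y axis), by gene (x axis); points are single arrays, bars are group means of 3 arrays. KO points lie below all WT points for Dsg2 and Pkp1, and WT replicate 1 lies below the WT mean for every gene shown.

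Of the 3 tested desmogleins, Dsg2 had the most negative fold change. Dsg2 is the desmoglein found most widely outside epidermis, in simple epithelia and heart as well as in hair follicles. It read −1.13, −0.64 and −0.79 in WT skins and −1.24, −1.24 and −1.69 in KO skins. Every KO skin lay below every WT skin, with the closest pair, WT replicate 1 and KO replicate 1, 0.11 apart. The log2 fold change was −0.54 (SE 0.19, 95% interval −0.998 to −0.077), or 1.45-fold lower, with a limma unadjusted p = 0.0286 and adjusted p = 0.375. A second Dsg2 probe, well above background on all 3 WT arrays and 1 KO array, read −3.97, −3.52 and −3.58 in WT skins and −4.16, −4.41 and −4.60 in KO skins. This probe was kept only through the WT arrays, where it read higher, so its values are a description and add nothing to the test. An exact two-sided permutation test over the 6 arrays gave p = 0.1 for Dsg2, the smallest that 3 against 3 arrays allow.

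Dsg3, the lower-layer desmoglein and the main pemphigus vulgaris antigen, read −0.12, −0.01 and 0.15 in WT skins and −0.49, −0.25 and −0.12 in KO skins. The groups met at one point, WT replicate 1 and KO replicate 3 being level. The log2 fold change was −0.29 (95% interval −0.64 to 0.05, limma adjusted p = 0.476) and −0.19 by its second probe. Dsg1a, one of the upper-layer desmogleins, read 4.08, 4.63 and 4.43 in WT skins and 4.07, 4.05 and 4.31 in KO skins. WT replicate 1 sat among the KO skins, and the log2 fold change was −0.24 (95% interval −0.65 to 0.17, adjusted p = 0.570). The mouse Dsg1 genes are close copies of each other, so their probes may share signal. The probes assigned to Dsg1b and Dsg1c gave log2 fold changes of −0.26 and −0.16, near the value of Dsg1a.

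None of the desmocollins passed the test, and the groups overlapped for each. Dsc1, of the upper layers, read 1.13, 1.70 and 1.804 in WT skins and 1.20, 1.25 and 1.61 in KO skins, a log2 fold change of −0.19 (95% interval −0.71 to 0.33, adjusted p = 0.695). The lowest of the 6 skins was a WT skin, replicate 1. Dsc2, the desmocollin with the widest tissue range, read −1.07, −0.78 and −1.16 in WT skins and −0.84, −1.42 and −1.29 in KO skins, a log2 fold change of −0.18 (95% interval −0.64 to 0.28, adjusted p = 0.677). Here KO replicate 1 was second only to WT replicate 2, and the groups overlapped. Dsc3, of the lower layers, read 2.04, 2.39 and 2.54 in WT skins and 1.85, 2.09 and 2.38 in KO skins, a log2 fold change of −0.21 (95% interval −0.68 to 0.25, adjusted p = 0.637), and −0.32 by a second probe. Its groups overlapped by both probes.

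Of the plaque members, Pkp1 had the most negative fold change. Pkp1 strengthens desmosomes in the upper epidermal layers, and its loss causes skin fragility. It read 6.58, 7.05 and 7.08 in WT skins and 6.53, 6.53 and 6.49 in KO skins. The KO skins lay within 0.038 of each other, and WT replicate 1 was only 0.048 above the highest of them. The log2 fold change was −0.39 (SE 0.16, 95% interval −0.77 to 0.0026), or 1.31-fold lower, with limma adjusted p = 0.427, and the exact two-sided permutation test gave p = 0.1. Pkp3, a plakophilin present through all living layers, read 4.55, 4.90 and 4.71 in WT skins and 4.50, 4.39 and 4.57 in KO skins. Its groups overlapped only through KO replicate 3 and WT replicate 1, with a log2 fold change of −0.23 (95% interval −0.55 to 0.09, adjusted p = 0.516).

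Dsp had the smallest difference of the tested members. It read 6.70, 7.18 and 6.97 in WT skins and 6.78, 6.74 and 7.01 in KO skins, a log2 fold change of −0.10 (SE 0.16, 95% interval −0.49 to 0.29, limma adjusted p = 0.775). Its probe was printed in 10 spots per array, 6 to 10 of them unflagged, and their SD within an array was 0.02 to 0.11 on the log2 scale. The SD between skins was 0.24 in WT and 0.14 in KO. A second Dsp probe gave −0.08. The sign of Dsp was not settled: it was 0.013 without WT replicate 2 and 0.055 in the value table the authors deposited, read as described under processing.

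**Figure D2:**
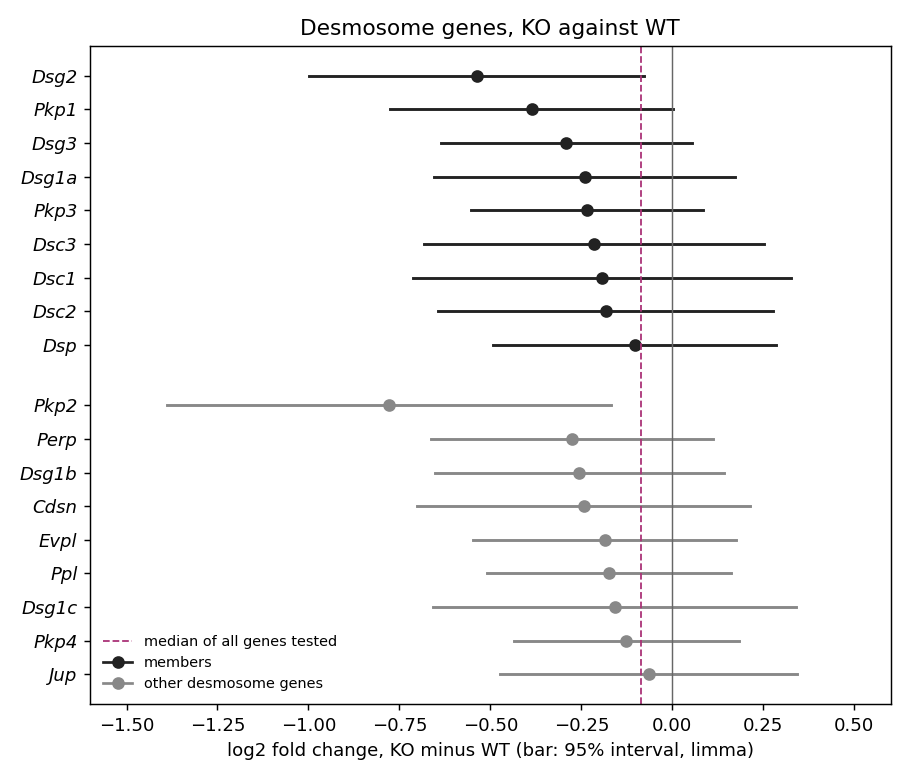
Log2 fold change, KO minus WT, with its 95% interval from limma (x axis), n = 3 per group. The 9 tested members are dark, and 9 other desmosome and cornified-envelope linker genes are grey. The dashed line is the median of all genes tested, −0.08. All 18 estimates are negative, and the intervals of Dsg2 and Pkp2 lie wholly below 0.

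Among 9 further desmosome and cornified-envelope linker genes (the wider desmosome list), Pkp2 had the most negative fold change. Pkp2 is the plakophilin of heart and simple epithelia and is a partner of Dsg2 there. It read −0.07, 0.75 and 0.29 in WT skins and −0.11, −0.72 and −0.54 in KO skins, a log2 fold change of −0.78 (SE 0.25, limma adjusted p = 0.346). All KO values lay below all WT values, by 0.040 at the closest. The other 8 genes also had negative values that did not pass: Perp, a membrane protein needed for firm desmosomes (−0.28), Dsg1b (−0.26), corneodesmosin, Cdsn (−0.24), envoplakin, Evpl (−0.19), periplakin, Ppl (−0.17), Dsg1c (−0.16), Pkp4 (−0.13) and plakoglobin, Jup (−0.06). The list's median was −0.19, with all 9 negative, against 64.1% of all genes. The adjusted threshold was passed by 0 of 9. At a limma unadjusted p under 0.05, 1 of 9, Pkp2, was lower in KO, against 5.50% of all genes.

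Genes of other epidermal junctions gave medians of the same size. Over all genes tested, 64.1% were negative, with a median of −0.08. For 12 adherens junction genes the median was −0.15, with 11 negative; Nectin2 and Nectin4, adhesion molecules of that junction, had −0.37 and −0.32. For 15 tight junction genes, all negative, it was −0.21, with −0.21 for the scaffold Tjp1 and −0.25 for the adhesion molecule F11r. For 6 gap junction genes it was −0.26, with 4 negative. The connexin Gjb6 had a log2 fold change of 1.04 that did not pass, from readings of −1.78, −1.42 and −1.65 in WT and 0.34, −0.42 and −1.65 in KO. All 10 transcription factors known to act on epidermal adhesion and barrier genes were negative, with a median of −0.22, −0.24 for Klf4 and −0.27 for Grhl1. Over these 4 lists 0 of 43 genes passed the adjusted threshold. A limma unadjusted p under 0.05 was reached by 0 of 43, against 2685 of all 22823 genes.

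The skins that were low in desmosome genes were also low in other epidermal genes and high in skeletal muscle genes. The desmosome score of an array, the median over the 9 genes of the signal minus the gene's WT mean, was −0.27, 0.18 and 0.06 in WT and −0.35, −0.33 and −0.13 in KO. The same score over 23 epidermal markers was −0.23, 0.22 and 0.002 in WT and −0.22, −0.17 and −0.18 in KO. Over 20 skeletal muscle genes it was 1.20, −0.33 and −0.79 in WT and 1.77, 2.07 and 1.52 in KO. Of these genes 0 of 20 passed the adjusted threshold. At a limma unadjusted p under 0.05, 17 were higher in KO, against 1429 of all 22823 genes. WT replicate 1 was the WT skin nearest to the KO skins on all 3 scores, and its desmosome score was below that of KO replicate 3. Other lists from outside the epidermis differed in direction. Of 10 dermal fibroblast genes 8 were negative, against 64.1% of all genes, with a median of −0.17. For T cells and natural killer cells, 11 of 11 had negative values, against 64.1% of all genes, with a median of −1.07. In that list 1 gene, Cd3g, passed the adjusted threshold (limma adjusted p = 0.046), against 5 of all 22823 genes. At a limma unadjusted p under 0.05, 9 of the 11 were lower in KO, against 1256 of all 22823 genes. The 3 tested cardiomyocyte genes were negative, with a median of −0.46, and none passed the adjusted threshold. That median rested on WT replicate 3, and without this array it was 0.033. Of 7 endothelium genes 4 were positive and 3 negative, with a median of 0.05. In whole skin, fewer cells of a type and less RNA per cell cannot be told apart.

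**Figure D3:**
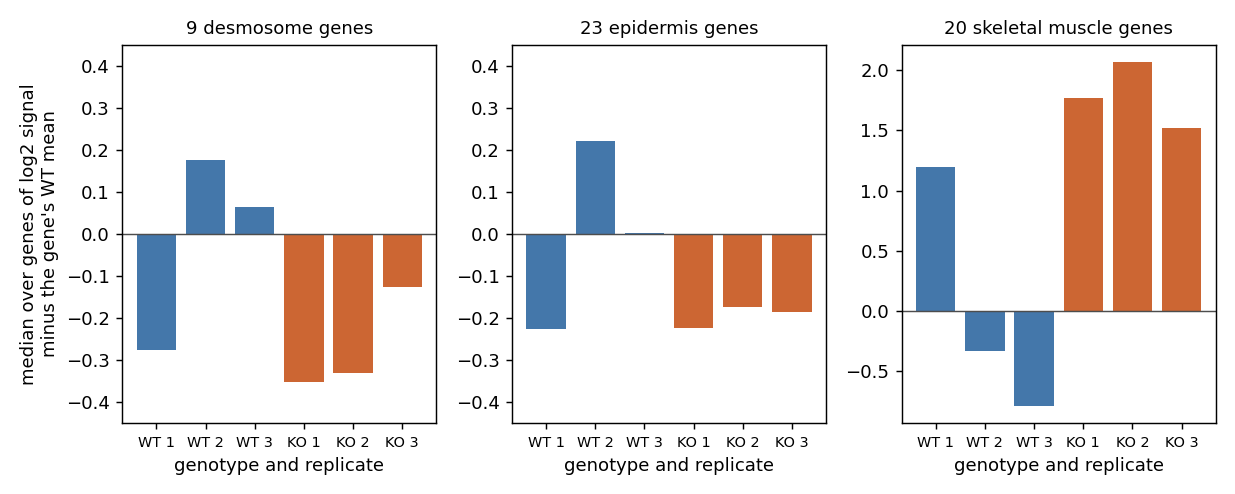
Scores of each array (x axis) for desmosome, epidermis and skeletal muscle genes, as the median over genes of log2 signal minus the gene's WT mean (y axis; the muscle panel has a wider scale). WT replicate 1 and the 3 KO arrays are below 0 in the first and second panels and between 1.20 and 2.07 in the muscle panel.

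When each array was scaled to its own epidermal markers, the desmosome median was −0.040 and 6 of 9 members were negative, against a median of 0.11 over all genes. Dsg2 then had −0.34 and Pkp1 −0.19, while Dsc1, Dsc2 and Dsp turned to 0.00016, 0.011 and 0.090. When the fit included the muscle score, the desmosome median was 0.046 and 4 of 9 were negative, Dsg2 at −0.29, Dsg3 at −0.073, Dsc2 at −0.13 and Pkp3 at −0.0014; the median over all genes was −0.0072. Both settings were chosen after seeing the data, and neither brought a member past the threshold. Whether the muscle or epidermal content of the pieces of skin accounts for the lower desmosome values was not tested.

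The difference also varied between slides. Slide 1 carried WT replicate 1 and KO replicate 3, slide 2 carried WT replicates 2 and 3 and KO replicate 1, and slide 3 carried KO replicate 2 alone. The desmosome median was 0.021 on slide 1, with 3 of 9 members negative, and −0.52 on slide 2, with 8 of 9 negative. Over all genes tested the medians were 0.022 and −0.11. Dsg2 had −0.57 on slide 1 and −0.52 on slide 2, each value resting on 1 KO array and not tested. Pkp1 had −0.09 and −0.54, Dsg3 0.00044 and −0.56, Dsc1 0.48 and −0.56, and Dsc3 0.34 and −0.61. Dsg1a had 0.22 and −0.46, Dsp 0.31 and −0.29, Pkp3 0.02 and −0.31, and Dsc2, the 1 member above 0 on slide 2, −0.23 and 0.13. With slide as a fixed block the desmosome median was −0.17, against −0.056 over all genes. WT mice were older on average, and with age as a covariate the desmosome median was −0.49, with all 9 negative and none past the threshold. The median over all genes also moved down in that fit, to −0.15.

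**Figure D4:**
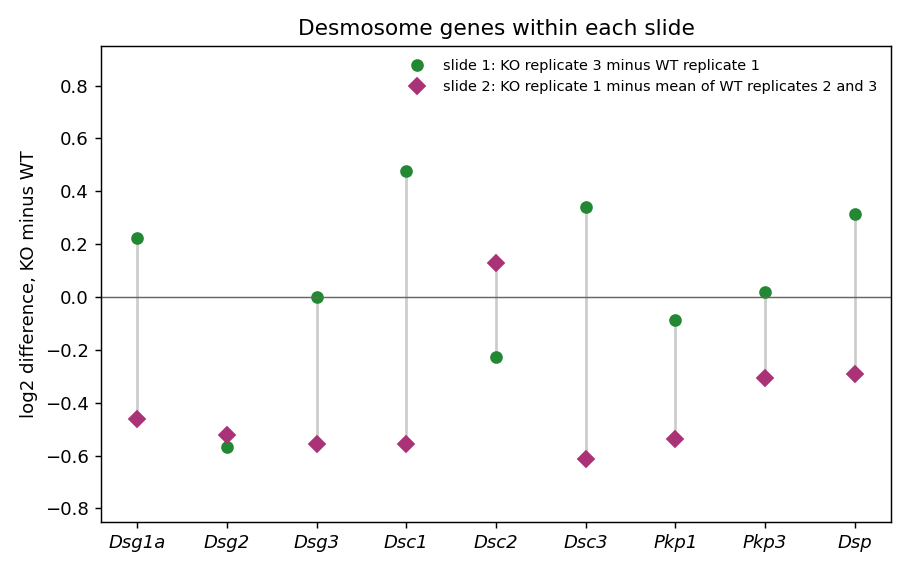
Log2 difference, KO minus WT, of each tested desmosome gene within slide 1 (circles, 1 array per genotype) and within slide 2 (diamonds, 1 KO and 2 WT arrays); no test was run within a slide. The symbols nearly coincide for Dsg2 (−0.57 and −0.52) and lie apart for Dsc1 (0.48 and −0.56) and Dsc3 (0.34 and −0.61).

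The balance of upper-layer to lower-layer cadherins was compared within arrays, where scaling cancels. Pkp1 was set against Pkp3 in the same way, though Pkp3 is present through all living layers. Dsg1a minus Dsg3 was 4.20, 4.64 and 4.28 in WT and 4.56, 4.30 and 4.42 in KO, a mean difference of 0.05. Dsc1 minus Dsc3 was −0.91, −0.69 and −0.73 in WT and −0.66, −0.83 and −0.77 in KO, a mean difference of 0.02. For both cadherin pairs the genotypes were interleaved. Pkp1 minus Pkp3 was 2.03, 2.15 and 2.37 in WT and 2.03, 2.14 and 1.92 in KO, a mean difference of −0.15. Exact two-sided permutation tests gave p = 0.7, 0.9 and 0.3 for the 3 pairs, all 0.9 after adjustment, where the smallest possible value is 0.1.

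Dsg2 was the 1 tested member whose values spanned over 1 log2 unit across the 6 skins, 1.05. The genes whose profile over the 6 arrays lay closest to it were Gm12250, Bco1 and Frmpd1, with a root mean square difference of 0.07, 0.08 and 0.09 after centring each gene on its mean.

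Dsg4, the desmoglein of the hair shaft, gave signals near background. Its only probe read 4.11, 5.05 and 7.31 scanner units in WT skins and 52.5, 29.7 and 21.8 in KO skins, and it was well above background on 1 array, KO replicate 1. The KO readings were all higher than the WT readings, but 5 of the 6 were not well above background by the scanner program's test. On the relative log2 scale the means were −6.34 ± 0.38 in WT and −4.04 ± 0.49 in KO (SD, n = 3). Since 2 of the 3 KO readings were themselves not well above background, the size of the difference is not reliable. With no filter on dim probes, limma over 37000 genes and transcripts gave a difference of 2.30 (SE 0.32) and adjusted p = 0.436. That size depends on the handling of background: it was 0.28 after normexp correction and 0.46 after normexp and quantile normalization.

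Hair shaft and inner root sheath genes read high in KO replicates 1 and 2, though 0 of the 19 tested passed the adjusted threshold. At a limma unadjusted p under 0.05, 7 were higher in KO, against 1429 of all 22823 genes. Among the 7, Padi3 was well above background on 1 WT array and was kept only through KO, where it read higher. Over the 19 genes the score was −0.11, 0.23 and −0.10 in WT and 3.88, 3.17 and −0.07 in KO. KO replicates 1 and 2, with the higher Dsg4 signals, were thus the skins rich in hair genes. KO replicate 3 was at the WT level for the list, yet its Dsg4 reading was above all 3 WT readings without being well above background. The part of hair growth in the Dsg4 signal was not tested. Without KO replicates 1 and 2, the median of the 9 tested members was −0.13, with 6 of 9 negative, against −0.017 over all genes. Dsg2 then had −0.84, with KO replicate 3 alone standing for KO.

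**Figure D5:**
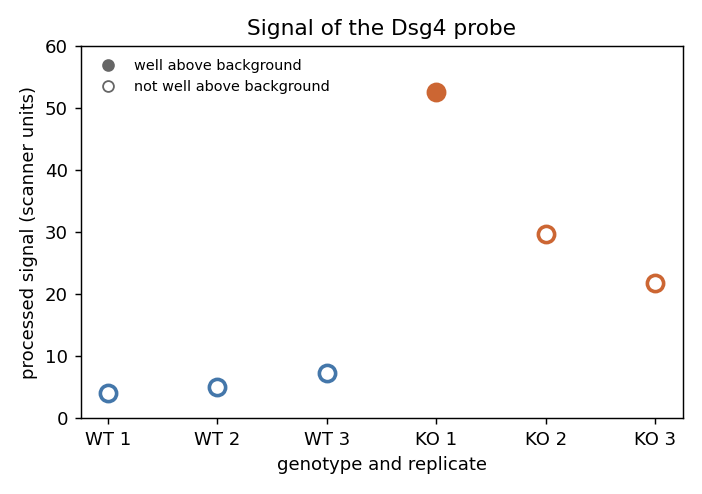
Processed signal of the Dsg4 probe in scanner units (y axis) on each array (x axis), filled where the scanner program marked it well above background. The KO arrays read 21.8 to 52.5 and the WT arrays 4.11 to 7.31, and only KO replicate 1 is filled.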

How the data were processed

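Per the file headers, the authors deposited spot intensity values from Agilent Feature Extraction 11.5.1.1, background-subtracted and detrended, with no normalization between arrays; other deposited columns are flags for background, saturation and outliers. Per the labels' protocols, total RNA was copied into Cy3-labelled RNA. The authors also deposited a log2 value table, made by steps the labels do not describe, although the submitters' processing notes list limma. Each of its columns followed the array of the other genotype with the same replicate number (correlation at least 0.998 over 30082 probes), so it was read with the genotype headings exchanged and used as an alternative only. Groups come from the sample titles and scanner files.

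Log2 processed signals were averaged over unflagged spots and expressed relative to the array's 75th percentile of non-control probes. Accessions were named through RefSeq (GRCm38.p6): 27497 of 55650 probes have a symbol. The array grid refers to another build, so array coordinates are left out. A probe entered (30082 did) if either group had it well above background on every array, and the brightest stood for its gene. Groups were compared with limma 3.58.1 (R 4.3.3), two-sided, with Benjamini-Hochberg adjustment over 22823 genes and transcripts; the fit was tested on simulated data. Normexp used the spot median, since the files lack a mean signal; its offset was 50. Separate ages within each group mark separate mice; p-values measure the spread between these arrays, whose number limits precision. The members and lists were chosen with earlier results of these data known. All members were named; from the other lists, up to 4 with the smallest p were named, and all of the wider desmosome list. The planned pair of Dsg4 and Dsg3 was not run because Dsg4 was below the filter.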

Additional observations from a re-analysis of the deposited data

How the results depend on the processing

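No desmosome gene passed the adjusted threshold under any of the 19 alternative fits, and Dsg2 was negative in all of them and within both slides (−0.84 to −0.29), as was Pkp2 in the 19 fits (−1.05 to −0.29). The desmosome median stayed within the spread between arrays in 16 of 21 settings; it was −0.49 with age as a covariate, −0.040 scaled to epidermis genes, 0.046 with the muscle score, 0.021 on slide 1 and −0.52 on slide 2, and −0.35 to −0.15 with 1 array left out (−0.35 without WT replicate 1, −0.15 without WT replicate 2). The pair differences with 1 array left out ran from −0.03 to 0.18 for Dsg1a and Dsg3, −0.04 to 0.07 for Dsc1 and Dsc3, and −0.23 to −0.06 for Pkp1 and Pkp3.

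The count of all genes called, 5, was 8 with normexp, with normexp and quantile normalization, and in the value table; 9 for probes well above background on all 6 arrays; 15 with slide as a random block and 1 as a fixed block; 141 with age; 2 with no filter and 2 scaled to epidermis genes; and 2 to 303 with 1 array left out. It was 0 with the muscle score (limma; 662 at unadjusted p under 0.05) and 0 without KO replicates 1 and 2 (1019). After centring on the group means, same-numbered arrays correlated at −0.13, −0.04 and 0.08, and 2 of 6 arrays were closest to their own number. With 3 arrays per group, these values cannot decide whether the numbers pair the mice. With the replicate number as a block, the count of genes called was 0 (limma, 2217 at unadjusted p under 0.05). Sox4 also missed the threshold with that block (adjusted p = 0.103), without KO replicates 1 and 2 (0.145) and with the muscle score (0.16), against 0.00135, while its log2 fold change was −3.56, −3.66 and −3.32, against −3.56. The causes were not tested.

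Signs turned, with no gene near the threshold, as follows. With slide as a fixed block Jup was 0.039. In the value table Dsp was 0.055. With 1 array left out Dsp ran up to 0.013 and Jup from −0.22 to 0.050, both positive without WT replicate 2. Without KO replicates 1 and 2, Dsc1 was 0.064, Dsc3 0.062, Dsp 0.060 and Gjb6 −0.037. Scaled to epidermis genes, Dsc1 was 0.00016, Dsc2 0.011, Dsp 0.090, Dsg1c 0.035, Jup 0.13, Pkp4 0.067, Ppl 0.019 and Evpl 0.0074. With the muscle score, Dsg1a was 0.17, Dsc1 0.45, Dsc3 0.24, Pkp1 0.046, Dsp 0.25, Dsg1b 0.19, Dsg1c 0.47, Jup 0.33, Pkp4 0.13, Cdsn 0.20, Ppl 0.092, Evpl 0.10, Nectin2 0.0038, Grhl1 0.079, Dst −0.047 and Krt15 0.051.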
